A study of Mus musculus with 6 samples.

Results

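The PPM phosphatases, also called the PP2C family, are serine/threonine phosphatases that need magnesium or manganese ions and act as single subunits. They differ in this from the PP1, PP2A and calcineurin enzymes, whose catalytic subunits work with regulatory partners. Family members switch off stress kinase, TGF-beta, NF-kB, Rab and metabolic signalling. Best known in the p53 field is Ppm1d (Wip1), a target of p53 that dampens the DNA damage response. Ppm1j (PP2C zeta), which was first described in testicular germ cells, has also been listed among potential transcriptional targets of wildtype p53. The genes described here are Ppm1a, Ppm1b, Ppm1f, Ppm1g, Ppm1h, Ppm1j, Ppm1k and Ppm1l. They were chosen by gene symbol as metal-dependent phosphatases other than Ppm1d, and make up 8 of the 47719 genes measured. All 8 passed the filter for testing, a mean of at least 1 FPKM (fragments per kilobase of transcript scaled to the mapped fragments of the library) over the mice, as did 13818 genes in all.

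RNA was taken from whole prostates of 6 mice of 1 strain, B6.129S4-Trp53tm3.1Tyj/J, which carries the Trp53 R270H mutation, an arginine-to-histidine change in the DNA-binding domain of p53. The groups were 2 wildtype mice (Trp53+/+, animals 39 and 41), 2 heterozygous mice (Trp53R270H/+, animals 37 and 40) and 2 homozygous mice (Trp53R270H/R270H, animals 47 and 49). The age was about 3 months in all groups, and tissue was collected 6 h after whole body exposure to 5 Gy, so every group was irradiated and no value describes an unirradiated prostate. The mutation is in the germline and is not confined to the prostate. With bulk tissue, a change in the number of cells of a type and a change in RNA per cell cannot be told apart.

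Library checks came first. The files give no fragment counts, so the counting error of a single FPKM is unknown. Relative numbers of fragments, read from the smallest FPKM steps, were 0.790 to 1.07 times that of wildtype mouse 39, and the FPKM sum per mouse was 518671 to 636407. Trp53 did not separate the genotypes (17.3 to 21.4 FPKM), and a gene-level value cannot show a point mutation, so it checks no label. Of the prostate epithelial markers Krt8 was at 134 to 189 FPKM in every mouse. Homozygous mouse 47 stood apart, with 257 FPKM of the secretory gene Pbsn against 7329 to 11512 in the other 5 mice. Results that use the homozygous group are therefore given with and without this mouse where it matters. Seminal vesicle genes varied strongly within a genotype and in both directions. Svs4 was listed at 0 in mouse 47 and at 6819 FPKM in the other homozygous mouse, while Svs6 was at 26147 and 178 FPKM. The summed FPKM of the 5 listed seminal vesicle genes was 3354 in wildtype mouse 39 and 30236 to 53400 in the other mice.

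Ppm1j (ENSMUSG00000002228) lies on chromosome 3 of GRCm38 from 104781056 to 104786018, on the plus strand, with 2 annotated transcripts and 1814 bases of exon. A close relative, Ppm1h (ENSMUSG00000034613), lies on chromosome 10 from 122678762 to 122945795. The 250 bases before each start site are shown because these relatives differed in direction between the genotypes. Sequences are from RefSeq on GRCm38.p6, plus strand, at chr3:104780806-104781055 for Ppm1j and chr10:122678512-122678761 for Ppm1h, and the capitals mark E-box letters (CANNTG), the core that myogenic and other basic helix-loop-helix factors can bind.
Ppm1j: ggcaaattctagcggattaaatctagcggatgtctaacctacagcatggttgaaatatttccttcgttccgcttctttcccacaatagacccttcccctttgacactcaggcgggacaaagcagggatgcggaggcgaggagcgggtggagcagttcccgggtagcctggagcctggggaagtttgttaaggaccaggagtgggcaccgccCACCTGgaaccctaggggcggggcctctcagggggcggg
Ppm1h: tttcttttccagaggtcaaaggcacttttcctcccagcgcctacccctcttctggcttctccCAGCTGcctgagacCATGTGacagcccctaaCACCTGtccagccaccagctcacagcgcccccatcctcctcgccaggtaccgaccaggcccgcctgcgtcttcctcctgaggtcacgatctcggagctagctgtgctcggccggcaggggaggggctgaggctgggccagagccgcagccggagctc
The Ppm1j window held 1 E-box, CACCTG, from 39 to 34 bases before the start. It also held 3 GC boxes (GGGCGG on either strand), the farthest of which shared 1 base with the E-box. The Ppm1h window held 3 E-boxes, 1 of them CACCTG, and no GC box. Neither held a p53 half-site. Among 32851 promoter windows of the same length, 66.2% held an E-box, 17.2% CACCTG, 32.7% a GC box and 7.13% a p53 half-site, all searched on both strands. These letter matches are descriptions and no measure of binding. RefSeq windows were matched for 7 of the 8 members. Ppm1l was the member with no entry.

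Ppm1j was the member with the largest fold difference between genotypes. Its FPKM was 1.15 and 2.09 in wildtype, 4.45 and 4.88 in heterozygous with 4.17 and 3.96 in homozygous mice. All 4 mice with a mutant allele lay above both wildtype mice, the heterozygous and homozygous values lay close together, and both heterozygous mice lay above both homozygous ones. Differences were taken between log2(FPKM + 0.1) values, where the added 0.1 makes folds of low genes too small. The difference from wildtype was 1.53 in heterozygous mice (SE 0.29, 2.88-fold, 95% confidence interval 0.81 to 2.25). In homozygous mice it was 1.33 (SE 0.29, 2.52-fold, interval 0.61 to 2.05). Neither passed the threshold of 0.05 after Benjamini-Hochberg adjustment over 13818 genes, with adjusted p = 0.269 and adjusted p = 0.144 from limma. Homozygous minus heterozygous was -0.19 (interval -0.91 to 0.53, adjusted p = 0.843 from limma), so the values give no order by number of mutant alleles.

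Both genotypes with a mutant allele, pooled as carriers, were 1.43 above wildtype (SE 0.25, adjusted p = 0.111 from limma). The moderated F-test over the 3 genotypes gave an adjusted p of 0.246 in limma, a test that 0.101% of all tested genes passed at 0.05. An exact two-sided permutation test of the 4 carriers against the 2 wildtype mice gave p = 0.0667, the smallest value that the 15 splits of the mice allow. The wildtype mice differed from each other by more than either carrier pair. Without wildtype mouse 41 the carrier difference was 1.84 and passed (adjusted p = 0.0470 from limma), and without wildtype mouse 39 it was 1.02 (adjusted p = 0.305 from limma). Without the odd mouse 47, the homozygous difference from wildtype was 1.30 (adjusted p = 0.374 from limma).

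**Figure D1:**
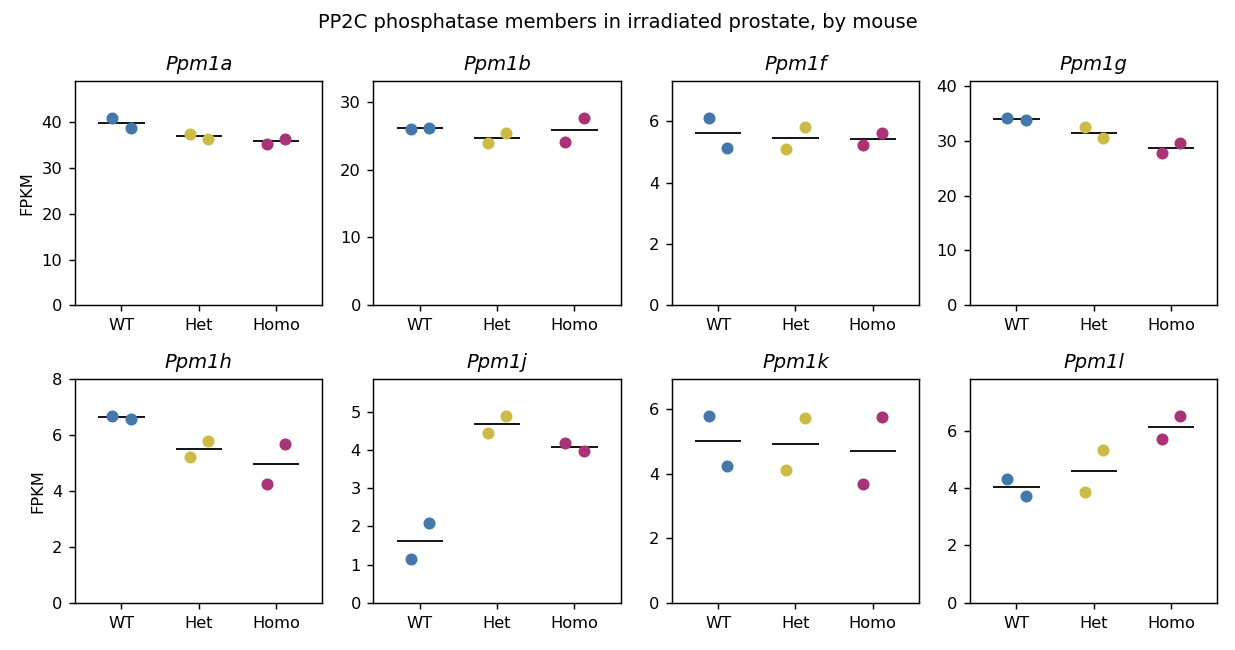
FPKM of the 8 PP2C members (vertical axes, linear and starting at 0, a separate scale for each gene) in wildtype (WT), heterozygous (Het) and homozygous (Homo) mice. Each point is 1 mouse and each bar the mean of 2. Ppm1j sits at 1.15 and 2.09 in wildtype mice and at 3.96 to 4.88 in the other 4, whereas Ppm1a, Ppm1b and Ppm1g vary little around much higher levels.

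To ask whether Ppm1j was higher alone, the other 7 members were compared in the same fit. None of the 8 members passed adjustment in any contrast. Over all tested genes the share with an adjusted p under 0.05 was 0% for heterozygous against wildtype, 0.384% for homozygous against wildtype, 0.0145% for homozygous against heterozygous and 0.311% for carriers against wildtype. By unadjusted p under 0.05 in limma, 1 member was higher in heterozygous than wildtype mice (Ppm1j) and 2 in homozygous mice (Ppm1j and Ppm1l), against 4.66% and 8.65% of all tested genes. Without mouse 47, or without mouse 41, the homozygous count was 1. The median difference of the 8 members was -0.06 for heterozygous and -0.07 for homozygous against wildtype, beside -0.01 and -0.04 over all tested genes. Of the 8, 1 lay higher in all 4 carriers than in both wildtype mice (Ppm1j) and 3 lay lower (Ppm1a, Ppm1g and Ppm1h). The same separation was seen in 11.6% of all tested genes upwards and in 12.6% downwards.

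**Figure D2:**
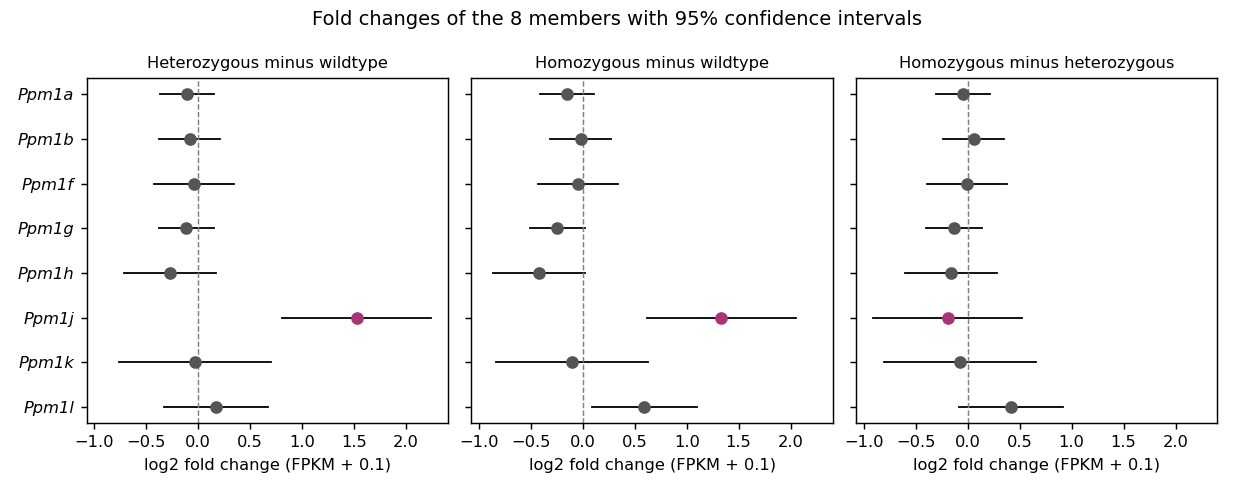
Difference between genotypes on the log2(FPKM + 0.1) scale (horizontal axis) for each member, with points at the estimate and lines spanning the 95% confidence interval from limma before adjustment. Ppm1j is at 1.53 and 1.33 against wildtype and at -0.19 between the mutant genotypes, and Ppm1l is at 0.59 in homozygous mice.

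Ppm1h, a phosphatase of Rab GTPases and a close relative of Ppm1j, pointed the other way. Its FPKM was 6.68 and 6.58 in wildtype, 5.22 and 5.79 in heterozygous with 4.24 and 5.69 in homozygous mice. All 4 carriers lay below both wildtype mice, with overlap between the mutant genotypes. The difference from wildtype was -0.26 (SE 0.18, limma adjusted p = 0.870) for heterozygous and -0.43 (SE 0.18, limma adjusted p = 0.292) for homozygous mice. Without mouse 47 the homozygous difference was -0.22. Because FPKM is per length, the relatives can be set against each other within a mouse. The ratio of Ppm1j to Ppm1h was 0.172 and 0.318 in wildtype, 0.851 and 0.843 in heterozygous with 0.983 and 0.695 in homozygous mice. The log2 ratio was 1.77 higher in carriers, and the exact permutation test of that difference gave p = 0.0667, again the smallest value possible. Because Ppm1j was higher and Ppm1h lower in all 4 carriers, the ratio had to separate the same mice. The test therefore adds nothing independent of these orders.

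Ppm1l (PP2C epsilon), a membrane phosphatase of the endoplasmic reticulum that acts on the ceramide transporter Cert1 and on stress kinases, had its highest values in homozygous mice. Its FPKM was 4.31 and 3.72 in wildtype, 3.87 and 5.33 in heterozygous with 5.72 and 6.50 in homozygous mice. Both homozygous values exceeded all others, and the heterozygous pair overlapped the wildtype pair. The homozygous difference from wildtype was 0.59 (SE 0.20, interval 0.09 to 1.10) and did not pass adjustment (adjusted p = 0.231 from limma). Without mouse 47 it was 0.69 (adjusted p = 0.429 from limma). For heterozygous mice it was 0.18 (adjusted p = 0.932 from limma). Ppm1l therefore had another order of genotypes than Ppm1j, whose highest values were heterozygous, although this difference in order was not tested.

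The abundant members differed little between genotypes. Ppm1a (PP2C alpha), which dephosphorylates Smad2 and Smad3, was at 40.9 and 38.7 FPKM in wildtype, 37.5 and 36.5 in heterozygous with 35.3 and 36.5 in homozygous mice. Its carriers lay below both wildtype mice by 0.10 and 0.15 on the log2 scale, with intervals from -0.37 to 0.16 and from -0.41 to 0.11. Ppm1g, a nuclear member linked to pre-mRNA splicing, was at 34.1 and 33.8, then 32.6 and 30.4, then 27.7 and 29.7 FPKM. Every mouse of a genotype with more mutant alleles lay lower than every mouse with fewer, an order that 4.98% of all tested genes shared. The homozygous difference of Ppm1g was -0.24 (SE 0.11, adjusted p = 0.311 from limma), and -0.19 without mouse 47. Ppm1b (PP2C beta), which acts on Map3k7 and Ikbkb, was at 25.9 and 26.2, then 24.0 and 25.4, then 24.0 and 27.5 FPKM, with overlap of the homozygous and wildtype mice. Of its 50-base exon words 13.4% also occur in another annotated gene, the pseudogene Gm7895, so its level is less certain than that of Ppm1j, for which the share was 0%.

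Ppm1f, a phosphatase of CaM kinase II and PAK kinases, was at 6.10 and 5.14 FPKM in wildtype, 5.11 and 5.82 in heterozygous with 5.24 and 5.61 in homozygous mice. Ppm1k, the mitochondrial phosphatase that activates branched-chain keto acid dehydrogenase, was at 5.80 and 4.25, then 4.14 and 5.74, then 3.68 and 5.78 FPKM. For both genes the homozygous values overlapped the wildtype values, and each genotype spread over a range wider than the differences between genotype means. The intervals of the homozygous difference were -0.43 to 0.34 for Ppm1f and -0.84 to 0.63 for Ppm1k, so a difference of Ppm1k the size of that of Ppm1l lies within its interval.

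In order of mean FPKM over the 6 mice the members were Ppm1a (37.6), Ppm1g (31.4), Ppm1b (25.5), Ppm1h (5.70), Ppm1f (5.50), Ppm1l (4.91), Ppm1k (4.90) and Ppm1j (3.45). The first 3 did not overlap each other or the rest in any mouse, while Ppm1h, Ppm1f, Ppm1l and Ppm1k overlapped across mice. Ppm1j was the lowest of the 8 in both wildtype mice and in mice 40 and 49, and ranked 6 and 7 of 8 in mice 37 and 47. It made up 0.917% and 1.73% of the summed FPKM of the members in wildtype, 3.81% and 4.07% in heterozygous with 3.78% and 3.26% in homozygous mice. The sum itself was 110 to 125 FPKM in the 6 mice.

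The rest of the family was read from 12 further genes, of which 10 passed the filter. None passed adjustment in any contrast. By unadjusted p under 0.05 in limma 8.65% of all tested genes were higher in homozygous than wildtype mice, and of these 10 genes 1 was, a similar share. This was Pdp1, which activates pyruvate dehydrogenase, at 3.38 and 3.31, then 3.86 and 3.97, then 9.19 and 4.68 FPKM. The difference was 0.95 (adjusted p = 0.222 from limma), and the value of 9.19 came from mouse 47. Without this mouse the difference was 0.47 (adjusted p = 0.429 from limma) and no further family gene had an unadjusted p under 0.05. Ppm1d was at 7.74 and 6.05 FPKM in wildtype, 5.47 and 5.78 in heterozygous with 4.97 and 5.34 in homozygous mice. It was thus lower in each step of mutant alleles, by 0.40 on the log2 scale in homozygous mice, and did not pass adjustment (adjusted p = 0.280 from limma). Ppm1m had the opposite order at 8.33 and 6.19, then 8.99 and 8.51, then 10.5 and 9.04 FPKM (0.43, adjusted p = 0.286 from limma), and 3.85% of all tested genes were likewise higher at each step. The homozygous difference of Pptc7, a mitochondrial member, was 0.28 (adjusted p = 0.300 from limma). Phlpp1, a phosphatase of the kinase Akt, was at 9.68 and 9.81, then 7.94 and 8.56, then 4.66 and 8.47 FPKM, with all carriers below both wildtype mice. Its homozygous difference was -0.62 (adjusted p = 0.307 from limma), and -0.20 without mouse 47. Of the 10 genes, 3 lay higher in all carriers than in both wildtype mice (Pdp1, Ppm1m and Pptc7) and 2 lay lower (Ppm1d and Phlpp1). The same separation was seen in 11.6% of all tested genes upwards and in 12.6% downwards. The carriers overlapped the wildtype mice in Ppm1e, Ilkap, Pdp2, Tab1 and Phlpp2, whose homozygous differences were -0.79, -0.08, 0.25, -0.08 and 0.27 (adjusted p from 0.485 to 0.744 in limma). Ppm1n and Pp2d1 lay below the filter.

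Substrates and partners of the PP2C enzymes formed a list of 21 genes, all tested, of which none passed adjustment. Their median difference was -0.01 for heterozygous and -0.0048 for homozygous against wildtype. By unadjusted p under 0.05 in limma 1 was higher and 2 were lower in homozygous mice, where 8.65% of all tested genes were higher and 9.32% lower. The cell cycle inhibitor Cdkn1b was 0.41 higher (adjusted p = 0.191 from limma), Smad2 was 0.40 lower and Rab8a 0.38 lower (adjusted p = 0.214 and adjusted p = 0.245 from limma). Without mouse 47 the unadjusted count was 2 higher and 0 lower, with Cdkn1b at 0.41 and Arhgef6, a partner of PAK kinases, at 1.01 against 0.48 with all mice (adjusted p = 0.272 from limma without the mouse). None of 11 catalytic subunits of other serine/threonine phosphatases passed adjustment either, with median differences of -0.11 and -0.15. In homozygous against wildtype mice the smallest p among them belonged to Ppp2ca of PP2A, at -0.22 (adjusted p = 0.337 from limma).

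Skeletal muscle markers were higher in the same mice as Ppm1j. Of 24 listed markers, 21 were tested. By unadjusted p under 0.05 in limma 19 were higher in both heterozygous and homozygous than in wildtype mice, against 4.66% and 8.65% of all tested genes. Only the sarcomere protein gene Myoz1 passed adjustment, in homozygous mice (1.58, adjusted p = 0.0477 from limma) and in carriers. The median difference of the list was 1.23 in heterozygous and 1.38 in homozygous mice, beside 1.53 and 1.33 for Ppm1j. The summed FPKM of the list was 2353 and 3374 in wildtype, 6441 and 6797 in heterozygous with 7980 and 6890 in homozygous mice. Most fast-fibre genes were far above 0 in every mouse. Creatine kinase Ckm, for example, was at 283 and 448, then 898 and 924, then 1019 and 886 FPKM. The slow-fibre genes Myh7, Tnnc1 and Tnni1, by contrast, lay below the filter. In homozygous mouse 49 they were at 1.74, 2.69 and 1.58 FPKM, and in every other mouse each was below 1 FPKM. The 2 tested markers without an unadjusted p under 0.05 in limma were the slow-fibre troponin Tnnt1, at 5.12 to 8.97 FPKM (homozygous difference 0.43), and the myosin Myh2, at 1.73 to 5.37 FPKM (0.85).

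Ppm1j per 1000 FPKM of Ckm was 4.05 and 4.66 in wildtype, 4.95 and 5.28 in heterozygous with 4.09 and 4.47 in homozygous mice. Across mice this ratio varied 1.30-fold, while Ppm1j itself varied 4.26-fold and Ckm 3.60-fold. The log2 level of Ppm1j minus the marker mean averaged -4.81 for the heterozygous pair, against -5.20 for the homozygous pair and -5.17 for the wildtype pair. Both heterozygous mice (-4.79 and -4.82) lay above every other mouse, the next being wildtype mouse 41 at -4.95. They were also the highest in Ppm1j per Ckm, and this split by genotype was not tested. With carriers pooled, Ppm1j measured against the mean log2 level of the 21 markers was 0.16 higher than in wildtype mice (exact permutation p of 0.467). When that mean was added to the limma model as a covariate, an alternative chosen after seeing the data, the difference of Ppm1j from wildtype turned to -0.69 in heterozygous mice (SE 0.82), -1.25 in homozygous mice (SE 0.94) and -0.97 in carriers (SE 0.87), with no adjusted p under 0.999. All carriers lay above both wildtype mice in the marker sum, so in 6 mice the genotype and the skeletal muscle level cannot be told apart.

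**Figure D3:**
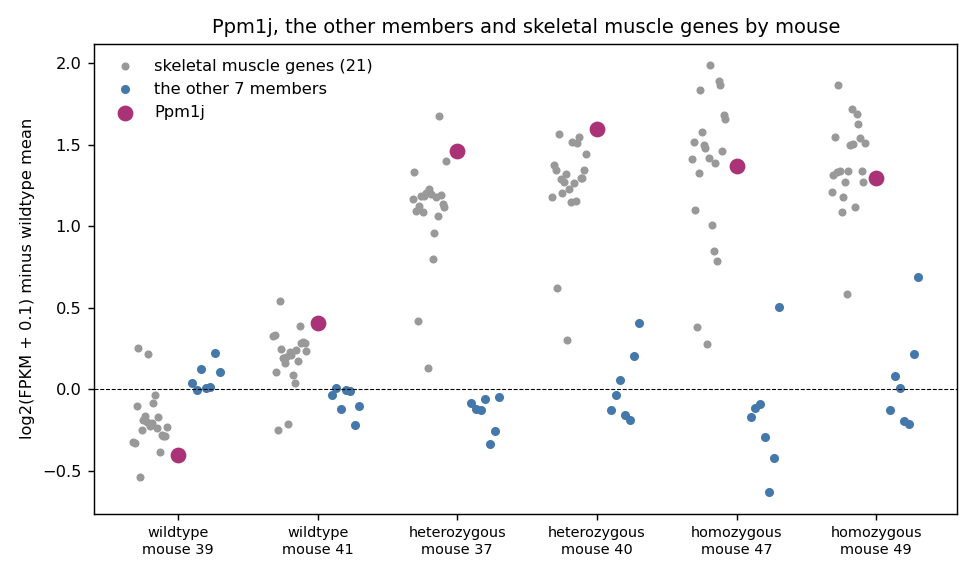
log2(FPKM + 0.1) minus the mean of the wildtype mice (vertical axis) for each of the 6 mice (horizontal axis). Large points are Ppm1j, small points to their left the 21 tested skeletal muscle genes, and points to their right the other 7 members. Ppm1j lies within or at the edge of the range of the muscle genes in each mouse, and in the 4 mice with a mutant allele it lies above the other members.

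Markers of other cell types were read in the same way. Smooth muscle genes had median differences of 0.12 and 0.33 with 0 of 5 at an unadjusted p under 0.05 in limma and 0 passing adjustment. The adipocyte median was 0.22 and 0.65, with 1 and 2 of 5 higher by unadjusted p. The endothelial median was 0.53 and 0.73, with 2 of 3 higher by unadjusted p in each contrast. These were Pecam1 and Cdh5 in heterozygous mice and Cdh5 and Kdr in homozygous mice. Of all tested genes 4.66% and 8.65% were higher by the same measure. Prostate epithelial genes had medians of -0.19 and -0.36, with 2 of 11 lower by unadjusted p in homozygous mice, beside 9.32% of all tested genes. Leukocyte genes had medians of 0.27 and 0.33 over the 2 that passed the filter. Against wildtype, no gene of these lists passed adjustment. Of the seminal vesicle genes Svs2, listed at 0 in both homozygous mice, did so in homozygous mice. Male germ cells are a known site of Ppm1j expression. Prm1 was at 0 in all mice, and Ddx4 and Dazl were at or below 0.186 FPKM. Acrv1 was at 2.48 to 4.52 FPKM, and both mutant genotypes overlapped wildtype, though both homozygous mice lay below both heterozygous ones. The part of these tissues in the values of Ppm1j was not tested.

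**Figure D4:**
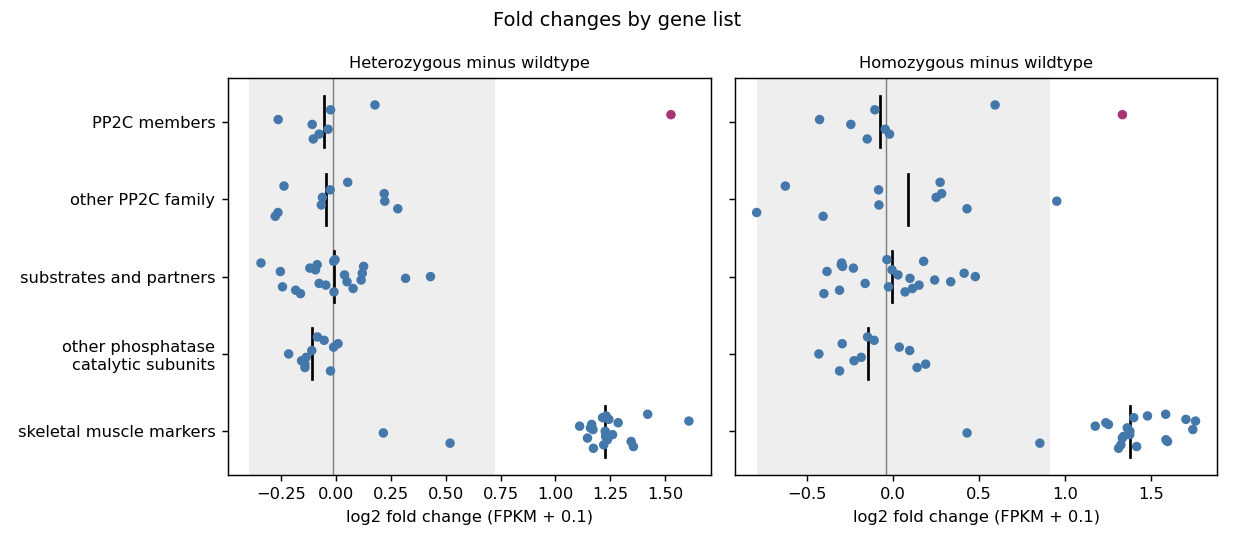
Difference from wildtype on the log2(FPKM + 0.1) scale (horizontal axis) of every tested gene of 5 lists (rows), for heterozygous mice on the left and homozygous mice on the right. Short black bars are list medians, the grey band holds all tested genes from percentile 5 to 95 and the grey line is their median. Ppm1j, the separate point in the top row, lies outside the band and level with the skeletal muscle markers, whose medians are 1.23 and 1.38.

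Genes with a pattern most like that of Ppm1j were ranked by Pearson's r of log2(FPKM + 0.1) over the 6 mice, as a description. The first 5 were Tmem237 (0.998), the homeobox gene Barx2 (0.995), the potassium channel gene Kcnc4 (0.994), Art5 (0.992) and the tubulin gene Tuba8 (0.991). The 21 skeletal muscle genes had r with Ppm1j from 0.389 to 0.986 with a median of 0.94, beside a median of -0.07 over all tested genes, and 9 of them were among the 100 genes most like it. A difference at least as large as that of Ppm1j was reached by 146 genes in heterozygous and 329 in homozygous mice, Ppm1j included. These correlations share the same 6 libraries and the same separation of wildtype mice.

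Genes next to Ppm1j on the chromosome differed less from wildtype than Ppm1j, though this was not tested. The nearest tested genes, Slc16a1 and Lrig2 before it and Rhoc and Mov10 after it, differed from wildtype by 0.05 to 0.25 in heterozygous mice and by 0.25 to 0.45 in homozygous mice, with no adjusted p under 0.05 in limma. Rhoc begins 2356 bases after the end of Ppm1j and was at 39.6 and 32.5 FPKM in wildtype, 42.4 and 40.3 in heterozygous with 46.0 and 41.0 in homozygous mice. Fam19a3, on the opposite strand, overlaps the Ppm1j gene by 785 bases but shares 0 bases of exon with it.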

How the data were processed

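RNA-seq of 6 prostates, 2 mice per genotype, was analysed, with genotypes taken from the labels. The authors prepared directional TruSeq libraries, aligned paired reads to GRCm38/mm10 with HISAT and deposited gene-level FPKM made with Cufflinks and Cuffnorm, 1 table per mouse. Tool versions, the annotation and any scaling between libraries are not given in the sources used here. The depth behind each value is unknown, because FPKM hold no counts, and no count test was run.

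From the deposited FPKM, log2(FPKM + 0.1) was computed for the 13818 of 47719 genes that averaged 1 FPKM or more. Genotype was fitted over all 6 mice in limma 3.58.1 (R 4.3.3, eBayes with an intensity trend, 3 residual degrees of freedom), with Benjamini-Hochberg adjustment over all tested genes at 0.05. Single values were compared by exact two-sided permutation. The labels do not say that the mice come from separate litters. Positions, overlaps and shared 50-base words used GENCODE M21 (47219 of 47719 identifiers matched), and promoters came from RefSeq, read with Python 3.11.15 and pandas 2.3.3.

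Members and gene lists were chosen with earlier results of these data known. Named were all members, any listed gene passing adjustment, up to 4 per list with the smallest p in homozygous against wildtype mice, the 12 further family genes, the 5 genes most like Ppm1j and its nearest 2 tested genes on each side. Arhgef6, Rhoc values and marker examples were named after their values were seen. A listed gene is not reported here. The fit was tested on simulated data. Alternatives were a pseudocount of 1 or 0.01, no filter or one at 5 FPKM, and median scaling or quantile normalization. Others were no intensity trend and leaving out each mouse. Added after seeing the data was the skeletal muscle level as a covariate or subtracted. Also added then were values without mouse 47 for the further family genes, substrates and partners, and other phosphatase subunits, not for the cell type lists.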

Additional observations from a re-analysis of the deposited data

How the results depend on the processing

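No member passed adjustment under another pseudocount, filter, scaling or variance prior. At a mean FPKM of at least 5 only 5 members were tested, without Ppm1j, and none had an unadjusted p under 0.05 in limma. Leaving out 1 mouse leaves a genotype with 1 mouse, assumed to vary like the others. The difference of Ppm1j then ranged from 1.12 to 1.93 in heterozygous mice, from 0.93 to 1.74 in homozygous mice, from -0.26 to -0.13 between them and from 1.02 to 1.84 in carriers. Without wildtype mouse 41 the carrier value of 1.84 passed (adjusted p = 0.0470 from limma), so that between 0 and 1 members were called in carriers, and the cause was not tested. With a pseudocount of 1 Ppm1j was 1.14 and 0.97 above wildtype, and after quantile normalization 1.42 and 1.20. The skeletal muscle covariate turned Ppm1j to -0.69, -1.25 and -0.97 in heterozygous mice, homozygous mice and carriers. These values did not pass adjustment. The muscle level separated carriers from wildtype mice, so the fit could not tell it apart from genotype.

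Small differences of other members turned sign. Under quantile normalization this held for Ppm1b in homozygous mice (0.075) and carriers (0.0087) and for Ppm1a between the mutant genotypes (0.047), and under median scaling for Ppm1f between them (0.012). On leaving out a mouse, Ppm1f ranged from -0.16 to 0.084 in heterozygous mice, -0.17 to 0.078 in homozygous mice, -0.10 to 0.086 between them and -0.16 to 0.081 in carriers. Ppm1k ranged from -0.26 to 0.21, -0.42 to 0.21, -0.40 to 0.24 and -0.28 to 0.15 in the same order. Ppm1b ranged from -0.12 to 0.079 in homozygous mice, -0.038 to 0.16 between the mutant genotypes and -0.097 to 0.00036 in carriers. Ppm1h ranged from -0.37 to 0.048 between the mutant genotypes and Ppm1l from -0.050 to 0.40 in heterozygous mice. No scaling moved the median of all tested genes by over 0.1.

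No paired analysis was possible because the animal numbers name different mice and do not pair them across genotypes. With 2 mice a genotype and no fragment counts, differences of the size seen in Ppm1a, Ppm1g or Ppm1h could not be separated from the spread between mice.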
